A study of Mus musculus with 3 samples.

Results

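The transcripts of 9 mucin genes, Muc1, Muc2, Muc4, Muc5ac, Muc5b, Muc6, Muc13, Muc15 and Muc20, were followed in 3 mouse mammary tumours. They were taken by symbol from the 21881 gene symbols of the study, and each of the 9 was found as 1 row with an acceptable status in every tumour. The tumours were grown from NDL(UCD), a transplantable line of an ErbB2 mammary cancer model, in which a mammary tumour virus promoter is known to drive activated Neu, the rat form of ErbB2. Cells of the line were injected into mammary fat pads that kept their own epithelium, in female FVB/NJ mice (strain labelled FVB/N) aged 6 to 8 weeks, and tumours were frozen at a width of 5 to 10 mm. The 3 tumours came from different mice and form a single group, so that genes could be compared with each other, with a fixed level and between tumours, but not with normal gland or another treatment. All 3 derive from 1 line, and the spread between them is a spread between host animals and libraries. Levels are in FPKM, fragments per kilobase of transcript per 1000000 fragments, which allows levels of different genes to be set side by side. Tumours are numbered in accession order.

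Mucins are large glycoproteins whose central domains, rich in serine, threonine and proline, carry dense O-linked sugar chains. Transmembrane mucins (here Muc1, Muc4, Muc13, Muc15 and Muc20) coat the apical surface of glandular epithelium, and several of them are known to signal with receptor tyrosine kinases. Gel-forming mucins (here Muc2, Muc5ac, Muc5b and Muc6) are secreted by goblet and mucous gland cells and polymerise into mucus. The mammary gland is known for transmembrane mucins, of which Muc1 and Muc15 are components of the milk fat globule membrane.

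The coding sequences of the 3 mucins placed above 1 FPKM differ in base composition. The first 120 bases of each coding sequence are shown because deposited ratios between tumours varied with GC content over all genes, as given below. They come from the longest protein-coding transcript of each gene in GENCODE vM21, and the capitals mark the start codon.
Muc15: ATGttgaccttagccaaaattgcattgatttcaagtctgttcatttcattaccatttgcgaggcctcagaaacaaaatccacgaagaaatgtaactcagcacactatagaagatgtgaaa
Muc20: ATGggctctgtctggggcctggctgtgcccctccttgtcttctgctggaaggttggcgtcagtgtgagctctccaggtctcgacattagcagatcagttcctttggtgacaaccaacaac
Muc1: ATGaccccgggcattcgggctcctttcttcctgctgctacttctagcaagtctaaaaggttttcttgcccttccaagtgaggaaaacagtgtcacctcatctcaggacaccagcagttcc
G and C made up 36.7% of the stretch shown for Muc15, against 55.8% for Muc20 and 50.8% for Muc1. Over the whole transcript the GC content was 38.3% for Muc15, 51.1% for Muc20 and 54.2% for Muc1, so that Muc15 was the most AT-rich of the 9 mucins, whose other members lay between 49.3% and 54.2%. The Muc2 model lacks a start codon and is incomplete, so its GC content covers only part of the gene. The coding sequence of Muc15 alone had 41.8% GC. The gene models behind the deposited FPKM are not given and may differ in length and GC content from those used here.

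RefSeq promoter windows on GRCm38.p6, 250 bases before to 50 after the start, were given for 6 of the 9 genes, with 2 windows for Muc13. The windows of Muc1, Muc4 and Muc20 are shown because Muc4 and Muc20 overlap at their ends and yet lay far apart in level, and Muc1 is the mucin most studied in breast cancer. Capitals mark TATAAA and GGGCGG on either strand, motifs that share no letter and cannot overlap.
Muc1, chr3:89228806-89229105, plus strand: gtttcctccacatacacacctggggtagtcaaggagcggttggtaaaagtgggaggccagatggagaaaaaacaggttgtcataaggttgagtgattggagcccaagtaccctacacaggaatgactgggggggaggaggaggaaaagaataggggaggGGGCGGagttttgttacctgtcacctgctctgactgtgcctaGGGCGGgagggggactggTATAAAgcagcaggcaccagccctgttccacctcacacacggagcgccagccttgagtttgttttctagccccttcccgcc
Muc4, chr16:32735636-32735935, plus strand: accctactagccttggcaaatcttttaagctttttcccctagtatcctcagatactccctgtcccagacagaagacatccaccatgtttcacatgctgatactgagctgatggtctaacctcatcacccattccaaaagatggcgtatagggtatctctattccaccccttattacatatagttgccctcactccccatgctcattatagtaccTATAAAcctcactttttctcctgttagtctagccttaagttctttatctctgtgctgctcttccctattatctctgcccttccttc
Muc20, chr16:32797386-32797685, minus strand: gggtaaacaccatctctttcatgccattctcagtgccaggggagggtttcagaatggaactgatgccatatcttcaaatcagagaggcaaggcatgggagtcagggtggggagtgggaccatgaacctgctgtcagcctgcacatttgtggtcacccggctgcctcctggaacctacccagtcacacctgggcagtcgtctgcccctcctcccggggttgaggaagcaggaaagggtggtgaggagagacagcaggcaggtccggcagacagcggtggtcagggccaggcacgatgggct
TATAAA lay 31 bases before the start in Muc1 and 36 bases before it in Muc4, and the Muc20 window had no match. Of all 32851 windows of the table, 13.6% held TATAAA and 35.7% held GGGCGG, which occurred at 2 positions in Muc1 and at none in Muc4 or Muc20. GGAAG, found in 71.4% of windows, matched in all 7 mucin windows, and TTCNNNGAA, found in 8.30% of windows, matched only in 1 of the 2 windows of Muc13. GGAAG can overlap the end of TTCNNNGAA. The GC content was 55.7% in Muc1, 43.7% in Muc4 and 59.3% in Muc20, against a median of 52.7%. The windows of Muc1 and Muc4 thus both held TATAAA at a similar distance from the start, in genes whose levels lay far apart.

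Only 3 of the 9 mucins were above 1 FPKM, all of them transmembrane. A limma fit over 18028 symbols, tested against 1 FPKM with a Benjamini-Hochberg adjusted p under 0.05, placed Muc15, Muc20 and Muc1 above that level, where 54.2% of all symbols were placed. The same fit placed the other 6 below, where 32.5% of all symbols were placed. The median mucin lay at 0.0305 FPKM, against 2.44 FPKM for the median symbol tested. When every tumour was brought to an FPKM sum of 1000000, the median gene moved up by 1.46 log2 units. The mucin calls remained 3 above and 6 below on that scale, where 64.5% of all symbols were above (11636, from 9778) and 23.3% below (4208, from 5864). Muc15, Muc20 and Muc1 together held 99.9%, 97.9% and 97.5% of the summed mucin FPKM in tumours 1, 2 and 3. In bulk tissue, fewer cells of a type and less RNA per cell cannot be told apart.

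**Figure D1:**
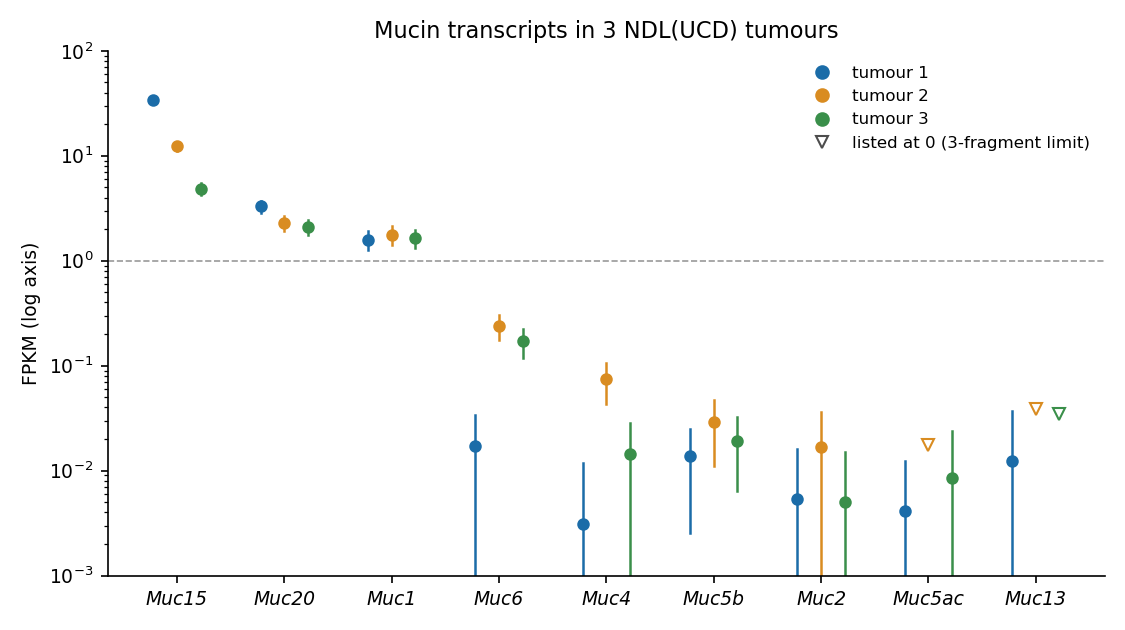
FPKM of the 9 mucins in each of the 3 tumours on a log axis. Points are deposited values, vertical lines are the deposited intervals (cut off at the lower edge where the lower bound is 0 or below the axis), open triangles show the 3-fragment limit where a gene was listed at 0, and the dashed line is 1 FPKM. Muc15, Muc20 and Muc1 lie above the line in every tumour and the other 6 below it.

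Muc15, a small transmembrane mucin known from the milk fat globule membrane, was the most abundant mucin. Its values were 33.7, 12.3 and 4.85 FPKM in tumours 1, 2 and 3, and 16.9 ± 14.97 FPKM on average (SD, n = 3). Tumour 1 was highest and tumour 3 lowest, and the deposited intervals, 31.9 to 35.5, 11.1 to 13.4 and 4.18 to 5.51 FPKM, did not overlap. On the log2 scale with 0.1 FPKM added, Muc15 lay 3.53 ± 0.49 (SE) above 1 FPKM (limma adjusted p = 0.00033). Its mean exceeded that of 86.9% of the symbols tested. The values rested on 1374, 481 and 212 fragments, as implied by the width of each interval, so counting error was small beside the spread between tumours. Muc15 held 87.2%, 73.4% and 54.9% of the summed mucin FPKM of the 3 tumours as deposited. These shares follow the deposited Muc15 values, and shares with GC and length trends removed were not computed.

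As deposited, Muc15 had the widest range of the 3 expressed mucins between tumours. Cochran's Q, which sets the 3 libraries against their counting error only, called Muc15 different with a ratio of 6.95 between the highest and the lowest tumour (adjusted p = 1.4e-200 over the 11193 genes averaging 1 FPKM or more). With a ratio of at least 2 required, 32.1% of those genes were called, and 70.5% of those with transcripts under 40% GC, as that of Muc15 is. The Muc15 ratio was 2.53 without tumour 1 and 2.75 without tumour 3. Among them, the 506 genes with transcripts under 40% GC had a median tumour 1 to tumour 3 ratio of 2.92, against 0.568 for the 2564 genes at 55% GC or more. The ratio of Muc15 exceeded that of 99.0% of all 11193 genes and that of 93.7% of the genes under 40% GC. With the trends on GC content and length taken out tumour by tumour, Muc15 stood at 17.5, 14.3 and 7.78 FPKM, with a ratio of 2.25 that Q still called (adjusted p = 8.7e-41), where 15.5% of genes were called. Tumour 1 remained highest and tumour 3 lowest. The GC trend was fitted first and the length trend on what remained. At 40% GC the GC trend alone was 0.770 log2 units in tumour 1 and -0.593 in tumour 3. The part of the length trend in the smaller Muc15 ratio is not given separately.

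**Figure D2:**
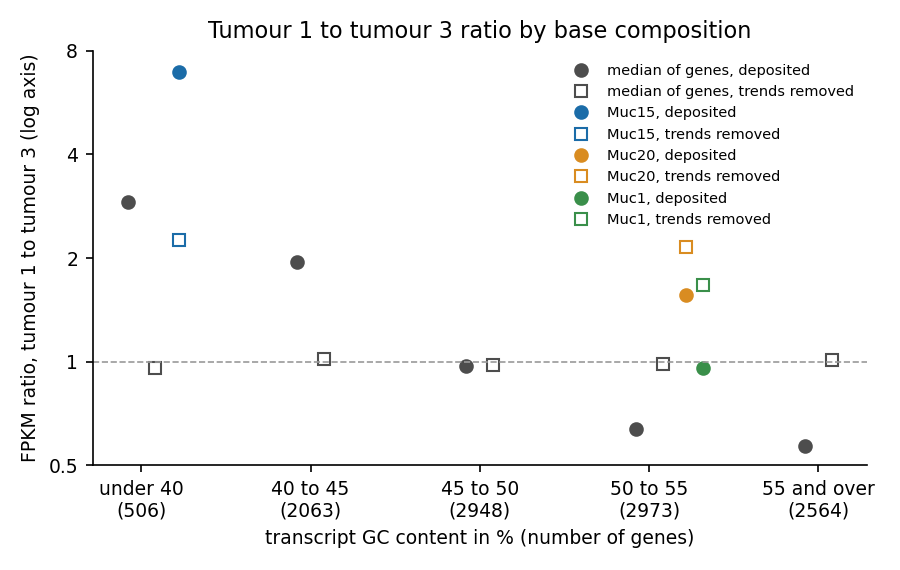
Ratio of FPKM in tumour 1 to tumour 3 on a log axis, against the GC content of the transcript. Grey symbols are medians over genes averaging 1 FPKM or more, coloured symbols are Muc15, Muc20 and Muc1, filled as deposited and open with trends removed. The deposited medians fall from 2.92 to 0.568 across the GC range and Muc15 lies above its group in both versions (6.95 and 2.25).

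Summed levels of cell type markers are given beside the Muc15 values, on both scales. The summed level of 9 luminal epithelial markers, of which 8 were above 1 FPKM and Krt19 was not separated from it, was 813, 1202 and 1149 FPKM for the 3 tumours in the deposited values, and 1122, 1097 and 906 FPKM with trends removed. Its order over the tumours thus depended on the scale: tumour 1 was lowest as deposited and highest with trends removed, and 2 of the 9 genes were called different between tumours on either scale. The summed level of 6 macrophage markers, all above 1 FPKM, was 237, 432 and 892 FPKM, and 296, 398 and 791 FPKM with trends removed. All 6 macrophage markers were called different as deposited, where 32.1% of genes were, and 2 of the 6 with trends removed, where 15.5% were. That of 6 adipocyte markers, 3 of them above 1 FPKM, was 67.0, 47.6 and 208 FPKM, and 51.0, 50.5 and 275 FPKM with trends removed. The 5 adipocyte markers averaging 1 FPKM or more were all called different on both scales, beside the same 32.1% and 15.5% of genes. Tumour 3, with the least Muc15, had the highest macrophage and adipocyte sums on both scales. The part of these cells in the Muc15 difference was not tested. The labelled tissue was checked against its own markers: the luminal list had a median of 44.1 FPKM, and 6 basal markers, 2 of them above 1 FPKM, had a median of 1.22 FPKM. Stromal markers were present, with 6 of 6 fibroblast markers (median 28.1 FPKM) and 5 of 6 endothelial markers (median 3.3 FPKM) above 1 FPKM. Of 5 skin markers 1 was above it. The counts above 1 FPKM of all these lists are read against the 54.2% of all symbols tested that were above it.

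Muc20, a transmembrane mucin known to associate with the receptor Met, followed at 3.29, 2.31 and 2.10 FPKM (2.57 ± 0.64, SD, n = 3). Tumour 1 was highest, and the other tumours had overlapping intervals of 1.93 to 2.68 and 1.76 to 2.44 FPKM. The level was 1.25 ± 0.26 (SE) log2 units above 1 FPKM (limma adjusted p = 0.0018). The ratio of 1.57 between tumours missed the 2-fold requirement, although Q exceeded counting error (adjusted p = 7.2e-05). With a relative error of 10% added to counting error the adjusted p was 0.058. At a required ratio of 1.5, which 67.8% of genes passed, Muc20 was called beside Muc15. With GC and length trends removed the values were 4.00, 2.14 and 1.87 FPKM, a ratio of 2.15 that was called (adjusted p = 3.6e-11).

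Muc1, the mucin with a cytoplasmic tail known to bind beta-catenin and ErbB receptors, was the steadiest as deposited. It stood at 1.59, 1.77 and 1.65 FPKM (1.67 ± 0.09, SD, n = 3), a coefficient of variation of 5.58%, on 95, 102 and 106 fragments. The 3 intervals overlapped, and Q gave no difference beyond counting error (adjusted p = 0.75). Its level was 0.69 ± 0.26 (SE) log2 units above 1 FPKM (limma adjusted p = 0.032). That call was lost without tumour 2 (adjusted p = 0.28) and without tumour 3 (adjusted p = 0.079). The evenness held for deposited values only, because with trends removed Muc1 was at 2.19, 1.62 and 1.31 FPKM, a ratio of 1.67 (Q adjusted p = 0.0043). It passed a required ratio of 1.5 on that scale, as did 38.2% of genes.

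Muc4, the large transmembrane mucin known as an intramembrane partner of ErbB2, was barely detected in these ErbB2 tumours. Its values were 0.00307, 0.0741 and 0.0143 FPKM, from 0.502, 22.6 and 4.19 implied fragments. Tumour 2 stood apart with an interval of 0.0429 to 0.105 FPKM, above the 0.0284 FPKM that bounded tumour 3 and the 0.0117 FPKM that bounded tumour 1. Muc4 was 3.11 ± 0.20 (SE) log2 units below 1 FPKM on the scale with 0.1 FPKM added (limma adjusted p = 6.1e-07). Muc13, a transmembrane mucin of the gut lining, was listed at 0.0123 FPKM in tumour 1, a single fragment, and at 0 in tumours 2 and 3, where 3 fragments would have been 0.0383 and 0.0344 FPKM. Muc13 was thus not detected beyond 1 fragment.

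The gel-forming mucins were all near 0. Muc6, the mucin of gastric glands, was the highest of them at 0.0171, 0.239 and 0.171 FPKM, from 4, 54 and 43 fragments. Tumour 1 was low, with an interval that ended at 0.0341 FPKM, and tumours 2 and 3 overlapped at 0.174 to 0.304 and 0.119 to 0.223 FPKM. Its mean of 0.142 FPKM was under the 1 FPKM required for the test between tumours. With that minimum at 0.1 FPKM Muc6 was called, with a ratio of 14.0 (Q adjusted p = 1.9e-15), where 35.6% of 14384 genes were called. With trends removed the values were 0.0210, 0.235 and 0.143 FPKM. Tumour 1, the highest for Muc15, was the lowest for Muc6 on both scales, while both genes were lower in tumour 3 than in tumour 2. Of 6 gastric markers Tff1, Tff2 and Gkn2 were listed at 0 in every tumour, none was above 1 FPKM, and their sum lay between 0.0392 and 0.171 FPKM.

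**Figure D3:**
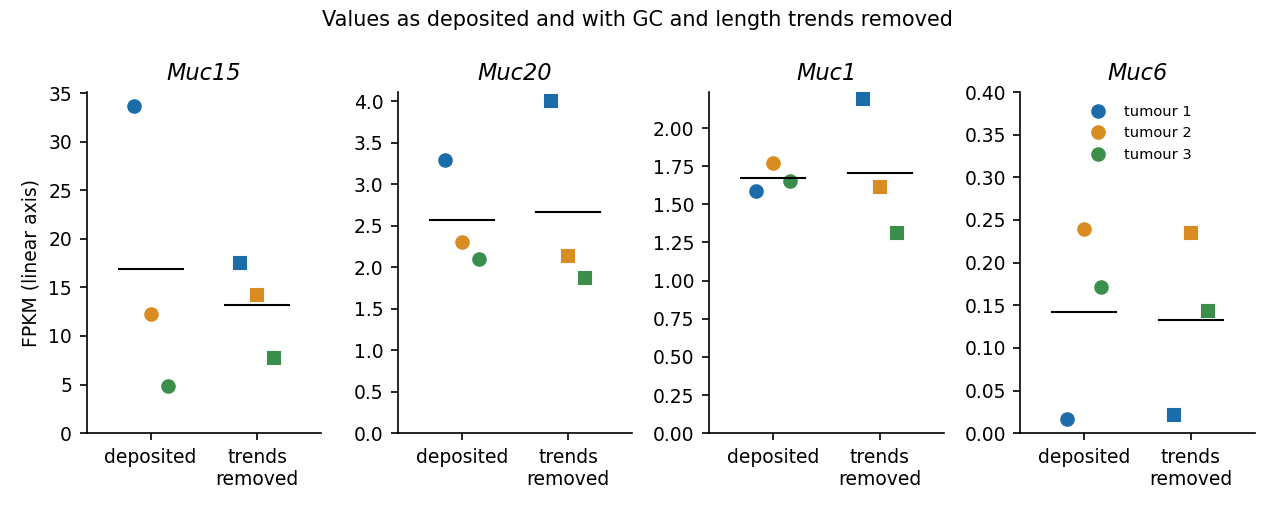
FPKM of Muc15, Muc20, Muc1 and Muc6 in the 3 tumours on linear axes that differ between panels, as deposited (circles) and with GC and length trends removed (squares). Black lines are means of 3 tumours. Removing the trends narrowed Muc15, spread Muc20 and Muc1, and left tumour 1 lowest for Muc6.

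Muc5b, the gel-forming mucin of airways and salivary glands, stood at 0.0138, 0.0289 and 0.0193 FPKM, from 6, 10.5 and 9 fragments, with overlapping intervals. Muc2, the main intestinal mucin, stood at 0.0054, 0.0168 and 0.0050 FPKM, from 1, 3 and 1 fragments. Muc5ac, the surface mucin of stomach and airways, was listed at 0.00409, 0 and 0.00859 FPKM, and a count of 3 fragments in tumour 2 would have been 0.0177 FPKM. These 3 genes were too low to enter the test between tumours, and limma placed all 3 below 1 FPKM. Of 6 intestinal markers Cdx1, Cdx2 and Fabp2 were at 0 in every tumour, as were Scgb1a1, Scgb3a2, Bpifa1 and Sftpc of 6 airway markers. The airway marker Scgb3a1 was at 0.702, 0 and 0.787 FPKM and was not separated from 1 FPKM (limma adjusted p = 0.074). The airway marker Foxj1 and the intestinal markers Lgr5, Vil1 and Guca2a had values above 0 and were placed below 1 FPKM.

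In the order of mean levels, Muc15, Muc20, Muc1 and Muc6, every tumour of the higher gene lay above every tumour of the next. The lowest Muc20 value, 2.10 FPKM, was above the highest Muc1 value, 1.77 FPKM, but with trends removed these ranges overlapped. From Muc6 downwards, through Muc4, Muc5b, Muc2, Muc5ac and Muc13, the range of each gene overlapped that of the next. Within tumours, Muc6 exceeded Muc4 in 3 of 3, with separate intervals in tumours 2 and 3, and Muc5b exceeded Muc2 in 3 of 3. With trends removed the lowest Muc5b value, 0.01555 FPKM in tumour 3, barely passed the highest Muc2 value, 0.0154 FPKM in tumour 2. These values rest on 9 and 3 fragments, and the Muc2 model used for the trends is incomplete, so the ranges are not read as separate. The other pairs did not keep 1 order in all 3 tumours.

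Differences between mucins were taken within each tumour on the log2(FPKM + 0.1) scale, which understates differences from genes near 0. With 3 tumours the exact two-sided sign-flip permutation test cannot go below p = 0.25, the value reached by each of the 8 differences computed, so none passes 0.05. The transmembrane mean exceeded the gel-forming mean by 3.42, 2.72 and 2.41 log2 units, 2.85 ± 0.51 on average (SD, n = 3). Muc1 minus Muc15 was -4.32, -2.72 and -1.497 log2 units, so that the gap was widest in tumour 1. With trends removed the mean difference was -2.83, and its SD fell from 1.42 to 0.31. The trends were fitted to deviations from each gene's mean over the tumours. The method thus holds mean differences nearly fixed, and only the SD could change much. Muc1 exceeded Muc4 by 3.799 ± 0.33 log2 units, and Muc4 minus Muc20 was -4.37 ± 0.63. Muc5b minus Muc5ac was 0.21 ± 0.14, between genes that both rest on few fragments.

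The mucins were far below Erbb2, whose mouse locus is the row measured here. The share of its fragments that came from the rat transgene was not tested. Erbb2 stood at 199.9, 195 and 189.7 FPKM, and Muc1 minus Erbb2 was -6.78 ± 0.09 log2 units (SD, n = 3), so that Erbb2 was 110-fold higher. Muc4 minus Erbb2 was -10.58 ± 0.41 log2 units. Of 12 genes of partners and sheddases of membrane mucins, Erbb2 included, 12 were above 1 FPKM, beside 54.2% of all symbols, with a median of 12.3 FPKM. They ranged from Ctnnb1, which encodes beta-catenin (246 ± 39.6 FPKM), and Jup, plakoglobin (28.7 ± 5.83 FPKM), down to the adaptor Grb2 (6.72 ± 1.96 FPKM) and the exchange factor Sos1 (2.00 ± 0.57 FPKM).

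The cluster of gel-forming mucins, all placed below 1 FPKM, was flanked by genes placed above that level. On mm9 chromosome 7, the 4 gel-forming genes lay in 1 cluster in the order Muc6 (148819948 to 148841207), Muc2 (148876261 to 148940598), Muc5ac (148974916 to 149005040) and Muc5b (149024977 to 149058990). The gene before the cluster, Ap2a2, an adaptor subunit of endocytosis whose locus ends 1037 bp from that of Muc6, was at 7.79, 12.4 and 16.7 FPKM. The gene after it, Tollip, a Toll-like receptor adaptor 8499 bp beyond Muc5b, was at 12.2, 21.4 and 23.7 FPKM. Both were above every value of the cluster, while no member of the cluster exceeded 0.239 FPKM in any tumour. Ap2a2 and Muc6 are transcribed towards each other in GENCODE vM21, both were lowest in tumour 1, and whether fragments past the end of Ap2a2 reached Muc6 was not tested.

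Muc4 (mm9 chromosome 16, 32735972 to 32782476) and Muc20 (32777505 to 32797521) overlapped by 4972 bp with opposite strands. The sources used here do not say whether strand was used in quantification, so fragments of the overlap cannot be assigned with certainty. The implied fragments of Muc4 and Muc20 were not whole numbers in any tumour. Muc4 nevertheless stayed near 0 beside Muc20. Next to the pair, 1700021K19Rik lay 24300 bp beyond Muc20 at 5.70 ± 1.89 FPKM. Muc13 (chromosome 16, 33794123 to 33820013) sat between Heg1 at 11.6 ± 2.47 FPKM and Itgb5, an integrin gene, at 38.1 ± 15.1 FPKM.

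Muc15 (mm9 chromosome 2, 110561765 to 110578120) lay wholly inside the locus of Ano3, a gene of the anoctamin family on the opposite strand. Ano3 stood at 0.226, 0.170 and 0.0804 FPKM, and Muc15 exceeded it by 5.66 ± 0.97 log2 units (SD, n = 3). Ano3 rested on 13.1, 8.14 and 3.31 implied fragments, which were not whole and fell in the same tumour order as Muc15. With trends removed Ano3 was at 0.127, 0.194 and 0.124 FPKM, so that tumour 2 was highest and the order was no longer shared. With the strand setting unknown, fragments of the shared stretch cannot be assigned with certainty. The host gene was thus below 1 FPKM (limma adjusted p = 6.5e-05) while the gene inside it was above. Muc1 (mm9 chromosome 3, 89032974 to 89037291) lay in a dense region with 11 genes within 50 kb, of which 7 were above every value of Muc1. Its nearest genes with a signal, Trim46 at 807 bp and Thbs3 at 2214 bp, stood at 0.798 ± 0.120 and 0.696 ± 0.239 FPKM, neither separated from 1 FPKM, and Mir92b between Thbs3 and Muc1 was listed at 0.

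**Figure D4:**
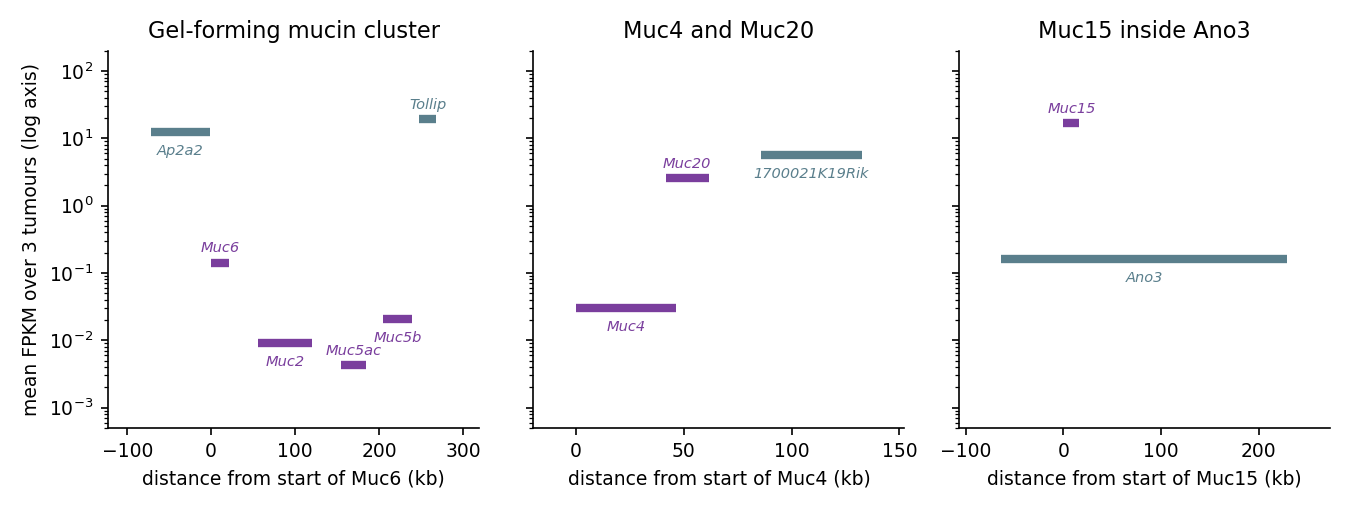
Mean FPKM over 3 tumours on a log axis against distance in kb, for the gel-forming cluster, for Muc4 with Muc20, and for Muc15 with Ano3. Bars span each annotated locus, purple for mucins and grey-blue for other genes. Muc6, Muc2, Muc5ac and Muc5b lie far below Ap2a2 and Tollip, and Muc15 lies far above Ano3.

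Genes that build the sugar chains of mucins ranged from near 0 to 49.6 FPKM, and their calls are read against the 54.2% of all symbols above 1 FPKM and the 32.5% below. Of 17 GalNAc transferases, which start O-glycans, 7 were above 1 FPKM, 7 below, 1 was not separated, Galnt14 was listed at 0 and Galnt6 was left out for its status in the files. Galnt2, Galnt3 and Galnt1 led with 27.2 ± 6.07, 23.7 ± 12.4 and 19.9 ± 8.57 FPKM, and Galnt13 was at 0.00522 ± 0.00904 FPKM. The list had a median of 0.471 FPKM, which is the mean of Galnt6 itself. Of 15 genes that extend or cap O-glycans 6 were above and 7 below, with a median of 0.700 FPKM. St6galnac2, a sialyltransferase that caps short chains, was at 49.6 ± 4.52 FPKM. C1galt1c1, the chaperone of the core 1 enzyme, was at 21.01 ± 11.4 FPKM, and Gcnt1, the core 2 branching enzyme, at 20.1 ± 10.1 FPKM. Gcnt3, the branching enzyme of mucous epithelium, was at 0.0169 ± 0.0230 FPKM, and St6galnac1 at 0.0256 ± 0.0089 FPKM. Among the 13 genes of both lists with a mean of at least 1 FPKM, 9 differed between tumours as deposited, where 32.1% of all such genes did, and none did with trends removed, where 15.5% did.

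Most genes of the goblet cell list were below 1 FPKM or at 0. Of 17 genes of goblet cells and mucus packaging 3 were above 1 FPKM, 7 below and 2 not separated, beside 54.2% above and 32.5% below over all symbols tested. The trefoil factors Tff1, Tff2 and Tff3, Zg16 and Retnlb were listed at 0 in every tumour, as were 3671 of the 21881 symbols. Agr2, the disulphide isomerase that folds gel-forming mucins, was at 0.0610, 0.444 and 0 FPKM and was picked out after its values were seen. The 3 above were Pigr, the immunoglobulin transporter of mucosal and mammary epithelium (8.63 ± 0.41 FPKM), and the transcription factors Foxa3 (3.70 ± 1.04 FPKM) and Creb3l1 (2.73 ± 0.39 FPKM). The goblet cell chloride channel regulator now named Clca1 is listed under its older symbol Clca3, at 0.0373, 0 and 0 FPKM, and was picked out after its values were seen. The symbol Clca1 in the files belongs to the gene now named Clca3a1, at 32.9 ± 17.3 FPKM.

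Other mucins and mucin-like genes ranged from 0 to a mean of 35.6 FPKM. Of 17 entries 11 were found, of which 5 were above 1 FPKM and 3 below, beside 54.2% above and 32.5% below over all symbols tested. The 11 found had a median of 0.938 FPKM. Cd164, the sialomucin endolyn, stood at 49.1, 37.2 and 20.5 FPKM, above Muc15 in every tumour. Parm1 was at 9.46 ± 1.26 FPKM, Mcam, an adhesion molecule also called Muc18, at 9.10 ± 3.01 FPKM, and the mucin-like genes Mucl1 and Mucl2 were listed at 0. Muc3, Muc3a, Muc12, Muc16, Muc17 and Muc21 were looked for but not matched to a gene of the study, and so were not analysed.

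**Figure D5:**
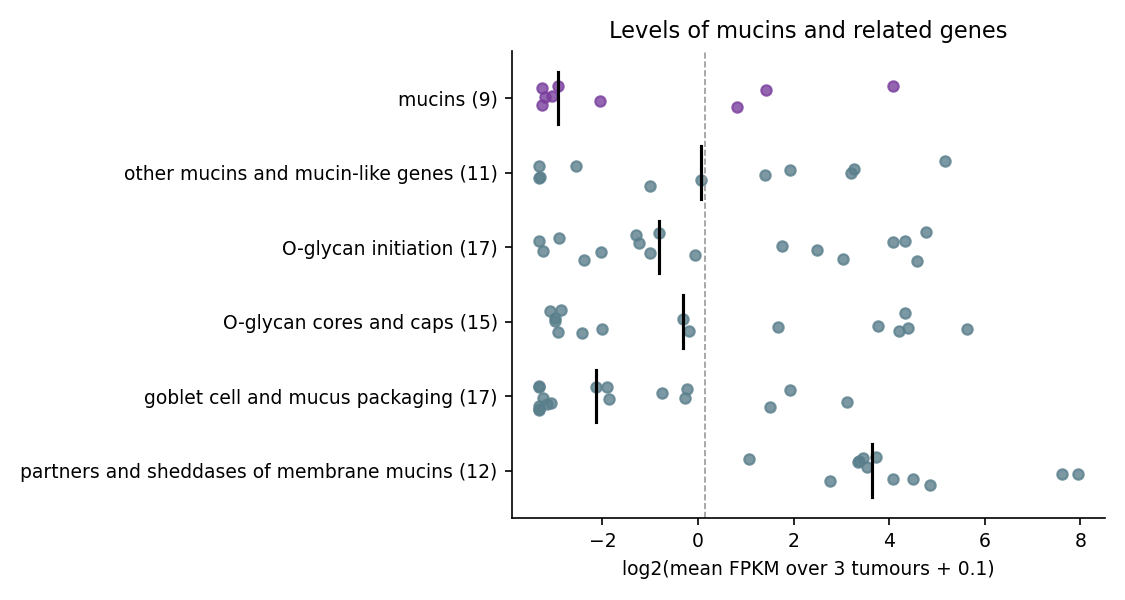
Level of each gene as log2(mean FPKM over 3 tumours + 0.1), for the 9 mucins and 5 lists of related genes, with the number of genes in brackets. Points are genes with vertical jitter, black bars are list medians and the dashed line is 1 FPKM. The mucins and the goblet cell genes have the lowest medians and the partners of membrane mucins the highest.

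The genes nearest to Muc15 in level and pattern over the 3 tumours were Sec62, Zc3h15 and Mme, at Euclidean distances of 0.161, 0.285 and 0.296 log2 units among 11192 genes. Sec62, a subunit of the protein translocation machinery, was at 34.8, 11.9 and 4.36 FPKM. Mme, which encodes the membrane peptidase neprilysin, was at 30.7, 12.9 and 5.80 FPKM. Their transcript GC contents were 42.4%, 45.3% and 38.0% in that order of distance, against 38.3% for Muc15. With only 3 tumours such likeness is a description of these libraries.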

How the data were processed

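Total RNA of 3 frozen tumours was depleted of ribosomal RNA and made into directional libraries from 50 ng, per the labels' protocols. Per the file headers, the authors deposited FPKM for each gene, with interval bounds and a status. TopHat, Cufflinks and mm9 are listed in the submitters' processing notes. The sources used here give neither versions nor the annotation or strand setting. Library preparation can favour some base compositions, which FPKM without a correction would keep.

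Rows of repeated symbols were added up, and 182 symbols without an OK status in every tumour were left out of tests. The half-width of an interval was taken as 2 standard errors, and the squared ratio of FPKM to that error as implied fragments, which summed to 11.7, 12.4 and 13.4 in units of 1000000. They were within 0.02 of a whole number for 69.3% to 71.1% of rows under 60 fragments, so no count test was run. Limits of 3 fragments and intervals cover counting error only.

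Levels were tested with limma 3.58.1 (R 4.3.3) on log2((FPKM + 0.1)/(1 + 0.1)) with trend and robust moderation. Tumours were compared by Cochran's Q with Benjamini-Hochberg adjustment. GC and length trends, from GENCODE vM21 transcripts matched by name for 21485 symbols and all 9 mucins, were removed per tumour by lowess (span 0.3, statsmodels 0.14.6). Locus lengths settled the symbol of Clca1. Both tests were run on simulated data. Those for Q held counting noise only, whereas the ratios between these libraries also varied with GC content. Named related genes are the 3 highest and 2 lowest of each list, beside the nearest neighbours, and others were chosen after their values were seen. The members, lists, motifs and tests were chosen with earlier results of these data known.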

Additional observations from a re-analysis of the deposited data

How the results depend on the processing

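Of 128 alternative fits of single mucin levels, 123 kept direction and call. The 5 exceptions were these. Muc1 lost its call without tumour 2 and without tumour 3, and against a level of 2 FPKM Muc1 turned to -0.25 log2 units and Muc20 lost its call, so that 1 mucin was above. Muc6 lost its call below a level of 0.2 FPKM, a level added after seeing the data (-0.44 log2 units, limma adjusted p = 0.22). With a minimum mean of 0.5 FPKM 0 mucins were below, since all 6 were then left out. The count above 1 FPKM ranged from 2 to 3 and the count below from 5 to 6 when 1 tumour was left out, where Muc13 drops out without tumour 1. Sos1 turned to -0.033 log2 units against 2 FPKM. The count of mucins that differed between tumours was 1 (Muc15), and 2 with a ratio of at least 1.5 (with Muc20), 2 with a minimum mean of 0.1 FPKM (with Muc6), 2 with GC and length trends removed (with Muc20), and 3 with trends removed and a ratio of at least 1.5 (with Muc20 and Muc1), a combination added after seeing the data. All 72 alternatives of the 8 differences between levels kept their direction, but most could not have changed it. Every difference had the same sign in all 3 tumours, so leaving 1 tumour out could not reverse it. For differences between single genes, neither the scaling nor the added constant could reverse it. Trend removal holds means over tumours nearly fixed. The count therefore adds no support to these differences. No paired analysis was possible because there is 1 group. Muc2, Muc5ac and Muc13 rest on at most 3 fragments per tumour, and like Muc4 and Muc5b they were too low to be tested between tumours.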
